A study of Homo sapiens with 17 samples.

Results

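Cal27 cells carrying the label of an NSD1 knockout were compared with Cal27 cells without it, both cultured with DMSO, the solvent given in place of the study's inhibitor. The comparison rests on 4 RNA libraries, chosen by their titles, 2 for each side, out of 10 RNA libraries and 17 samples in all. Of 34496 genes listed, the 13241 that passed a filter on low counts were tested. Cal27 is an established cell line from a squamous cell carcinoma of the tongue, and the labelled knockout was made from it. The labels name a single knockout and do not say whether it is a clone or a pool, how NSD1 was edited, or whether replicates came from separate cultures, so the p-values cover no more than the spread seen between these libraries, and that spread may be technical. The labelled knockout given EPZ-6438, an inhibitor of the histone methyltransferase EZH2, had 2 libraries that entered the fit only to estimate the spread. An untreated library of the labelled knockout and an untreated library of Cal27, 1 each, stood outside the fit and are given as a description with no test.

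NSD1 methylates lysine 36 of histone H3, and in mammals it lays down much of the dimethylated form found between genes. In mammalian cells this mark limits where the Polycomb complex PRC2 can methylate lysine 27 of the same histone, and it helps to recruit the DNA methyltransferase DNMT3A. Loss-of-function mutations of NSD1 recur in squamous carcinomas of the head and neck.

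NSD1 mRNA stood at 164 and 162 CPM (counts scaled to a common library total, with TMM adjustment) in the labelled knockout libraries, against 113 and 113 CPM in the Cal27 libraries. Both labelled knockout libraries were higher, with a log2 change of 0.53 ± 0.04 (SE; edgeR quasi-likelihood test, adjusted p = 4.2e-08). A gene-level count cannot tell an edited transcript from an intact one, so the higher NSD1 level neither supports nor refutes the label, which is used here only as a name. In these bulk samples, fewer cells of a kind and less RNA per cell cannot be told apart.

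Total counts per library were 12849487 and 13737465 in the labelled knockout and 14040470 and 13848972 in Cal27. Calls were made with the edgeR quasi-likelihood test at an adjusted p under 0.05 (Benjamini-Hochberg, over all 13241 genes), and the words rose and fell refer to such calls. In the labelled knockout 2169 genes rose (16.4%) and 2580 fell (19.5%), so that 35.9% were called. Counts for gene lists and families below are to be read beside these shares. Scaling by library size alone gave 2978 that rose and 2088 that fell. Most calls were small, with 81.8% under 2-fold. The libraries of each group did not overlap in 67.2% of all tested genes, so that a lack of overlap is common here. Among changes of 2-fold or more the split was uneven, with 181 genes that rose (1.37%) and 682 that fell (5.15%). At 8-fold or more there were 16 that rose and 145 that fell. The median log2 change over all tested genes was -0.01.

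The largest decreases, apart from interferon and keratinocyte genes, were in genes of varied function that were close to silent in the labelled knockout. NUP210, a membrane component of the nuclear pore, stood at 0.308 and 0.216 CPM in the labelled knockout libraries, against 23.6 and 22.5 CPM in the Cal27 libraries. It was near 0 in both labelled knockout libraries, and the groups lay far apart (log2 -6.42 ± 0.24, SE; edgeR, adjusted p = 2.1e-12). NEFL, the light chain of neuronal intermediate filaments, had 2 counts over both labelled knockout libraries and 274 over both Cal27 libraries, a ratio of 135-fold lower with a 95% counting interval of 37.1 to 1120. TIMP3, a matrix-bound inhibitor of metalloproteinases, had 3 counts in the labelled knockout and 283 in Cal27, or 93.2-fold lower (31.6 to 455). SNRPN, an imprinted gene for a spliceosomal protein whose locus overlaps other transcripts, stood at 0.308 and 0.0 CPM in the labelled knockout and 7.80 and 7.19 CPM in Cal27. For all 4 genes each labelled knockout library lay below each Cal27 library.

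The other 11 of the 15 largest decreases had log2 changes between -5.05 and -3.88. They included PPP1R14C, an inhibitor of protein phosphatase 1 (log2 -5.05 ± 0.21, SE), the MAGE family gene MAGED1 (-4.97 ± 0.35), and SESN3, a sestrin that restrains mTORC1 (-4.92 ± 0.23). BMP7, a bone morphogenetic protein, stood at 0.616 and 0.648 CPM in the labelled knockout and 12.3 and 12.7 CPM in Cal27. ST6GAL1, which adds sialic acid to glycans, fell by 4.25 on the log2 scale, as did SIRPA, an inhibitory receptor best known on myeloid cells. SULF2, which removes sulfate from heparan sulfate, stood at 0.847 and 2.3 CPM in the labelled knockout, against 27.9 and 27.7 CPM in Cal27. MMP13, a collagenase, stood at 5.85 and 6.77 CPM in the labelled knockout and 97.4 and 95.5 CPM in Cal27, with no overlap (log2 -3.93 ± 0.08, SE; edgeR, adjusted p = 7.5e-16). PIK3AP1, an adaptor of PI3K signalling, and LOXL4, an enzyme that cross-links collagen, closed the list with log2 changes of -3.89 and -3.88.

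Increases were fewer and smaller. ANKRD1, an ankyrin repeat protein of stretched muscle and epithelium, stood at 5.70 and 5.04 CPM in the labelled knockout libraries, against 0.219 and 0.741 CPM in the Cal27 libraries. It was low in both Cal27 libraries and the groups did not overlap (log2 3.46 ± 0.38, SE; edgeR, adjusted p = 1.7e-06). SLIT2, an axon guidance ligand, stood at 20.9 and 18 CPM in the labelled knockout and 2.33 and 1.85 CPM in Cal27 (log2 3.21 ± 0.17). ALOX5AP, which presents arachidonic acid to the leukotriene-forming lipoxygenase, stood at 5.16 and 6.77 CPM in the labelled knockout and 0.656 and 0.815 CPM in Cal27 (log2 3.01 ± 0.29). The gel-forming mucin MUC2 and the cytokine CSF2 rose by 2.68 and 2.25 (log2). CCND2, a D-type cyclin that drives entry into the cell cycle, stood at 199 and 198 CPM in the labelled knockout, against 48.9 and 47.7 CPM in Cal27, the lowest adjusted p among the 15 increases (9.3e-16, edgeR).

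The remaining increases named by size were PPP1R9A, a scaffold of actin and protein phosphatase 1 (log2 2.20), ROR1, a receptor for WNT ligands (2.04), VGLL2, a cofactor of TEAD factors (2.01), VIPR1, a receptor for vasoactive intestinal peptide (1.96), LTBP2, a matrix protein related to the binders of latent TGF-beta (1.83), SERPINA1, the inhibitor of neutrophil elastase (1.82), PLEKHG4B (1.81), and TNFRSF6B, a decoy receptor for FAS ligand (1.78). TNFRSF6B overlaps a neighbouring gene and its reads may be shared. TGIF2-RAB5IF, a read-through of adjacent genes, had a log2 change of 2.79 that is uncertain: its Cal27 libraries stood at 1.75 and 0.0 CPM, and it was not called with DESeq2 (adjusted p = 0.60) or with a robust estimate of the spread (adjusted p = 0.24, edgeR). Its log2 change was 9.38 without Cal27 replicate 1 and 1.80 without Cal27 replicate 2. LTBP2 went the other way in the untreated pair, at 9.16 CPM in the labelled knockout and 20.3 CPM in Cal27, opposite to its direction with DMSO.

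**Figure D1:**
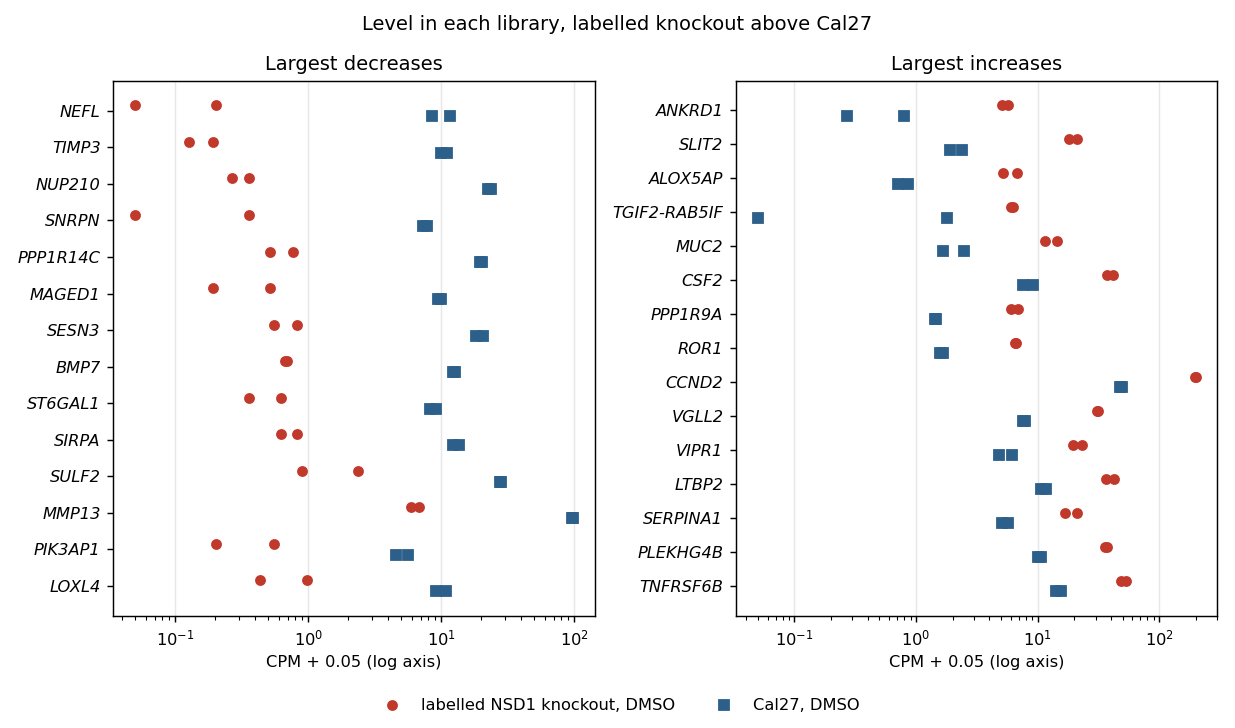
CPM plus 0.05 on a log axis for 14 of the 15 largest decreases (left panel) and the 15 largest increases (right panel) among protein-coding genes of at least 5 CPM, one point per library, with the labelled knockout (red circles) above Cal27 (blue squares). The decreases mostly reach below 1 CPM in the labelled knockout, while the increases mostly start from above 1 CPM in Cal27.

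Few genes met a strict rule for presence in one group and near absence in the other. Genes that missed either of its limits are not counted, though some had large log2 changes, such as PARD3B (-8.27), TUB (-8.23) and AC008581.2 (8.11). At a level of at least 3 CPM in each library of one group and fewer than 3 counts over both libraries of the other, 3 genes were found in Cal27 and 1 in the labelled knockout. Besides NEFL, these were RNF182, a ubiquitin ligase with 1 count in the labelled knockout and 101 in Cal27 (99.8-fold lower, 95% counting interval 17.5 to 3980), and SYNGR1, a synaptic vesicle protein, with 0 counts in both labelled knockout libraries and 48 and 41 in the Cal27 libraries. Against a floor of 3 counts over the group, SYNGR1 was at least 29.3-fold lower. It was lower untreated too, with 12 counts in the labelled knockout and 159 in Cal27. The row AC055811.2, whose symbol no gene table used here matched, had 48 and 42 counts in the labelled knockout and 0 in both Cal27 libraries, at least 30.5-fold higher, while untreated it had 18 counts in the labelled knockout and 10 in Cal27.

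The promoters of 2 strong decreases and 2 strong increases are printed as examples, with CpG dinucleotides, the substrate of DNA methylation, in capitals. Each is the sequence from 250 bases before to 50 after the annotated start, from RefSeq on GRCh38.p14, read along the gene. NUP210 lies at chr3:13420273-13420572 on the minus strand, LOXL4 at chr10:98268145-98268444 on the minus strand, ALOX5AP at chr13:30713235-30713534 on the plus strand and ANKRD1 at chr10:90921038-90921337 on the minus strand.
NUP210: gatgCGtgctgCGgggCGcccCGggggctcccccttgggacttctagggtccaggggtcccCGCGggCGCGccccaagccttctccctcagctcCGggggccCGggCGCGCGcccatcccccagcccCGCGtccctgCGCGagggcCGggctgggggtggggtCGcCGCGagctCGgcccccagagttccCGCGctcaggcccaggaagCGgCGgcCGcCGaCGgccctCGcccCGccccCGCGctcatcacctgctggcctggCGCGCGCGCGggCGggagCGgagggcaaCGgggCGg
LOXL4: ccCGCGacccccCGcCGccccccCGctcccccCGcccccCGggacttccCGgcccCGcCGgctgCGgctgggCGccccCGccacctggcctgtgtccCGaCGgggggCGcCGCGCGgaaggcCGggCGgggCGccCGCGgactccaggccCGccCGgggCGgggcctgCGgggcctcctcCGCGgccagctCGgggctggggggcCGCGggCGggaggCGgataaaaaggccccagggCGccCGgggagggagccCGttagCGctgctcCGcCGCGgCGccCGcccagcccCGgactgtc
ALOX5AP: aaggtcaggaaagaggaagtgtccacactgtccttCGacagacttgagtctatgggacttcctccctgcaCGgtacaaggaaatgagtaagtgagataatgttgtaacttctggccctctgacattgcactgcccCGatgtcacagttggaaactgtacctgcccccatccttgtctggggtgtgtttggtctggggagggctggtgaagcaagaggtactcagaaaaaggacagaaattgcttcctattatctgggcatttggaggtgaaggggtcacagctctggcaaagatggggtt
ANKRD1: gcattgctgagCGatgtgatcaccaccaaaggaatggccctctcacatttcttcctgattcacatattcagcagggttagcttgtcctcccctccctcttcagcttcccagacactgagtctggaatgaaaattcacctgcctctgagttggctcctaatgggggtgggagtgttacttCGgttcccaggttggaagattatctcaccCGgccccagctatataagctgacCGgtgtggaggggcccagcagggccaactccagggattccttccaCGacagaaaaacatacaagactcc
The promoters of NUP210 and LOXL4, which fell, hold 42 and 45 CpG. Those of ALOX5AP and ANKRD1, which rose, hold 3 and 5. These 4 were chosen after their values were seen.

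Over the whole set the contrast was smaller. Of 10300 tested genes with a promoter in the table, 81.8% had 15 or more CpG. The share was 50% of 120 genes that rose 2-fold or more and 65.7% of 504 that fell 2-fold or more, so both were below the share over all genes. Level moved with this share. Genes were divided into 4 equal classes by their CPM in the untreated Cal27 library, which the fit did not use, and the lowest class (up to 8.0 CPM) held 148 of the 181 genes that rose 2-fold or more and 417 of the 682 that fell. Within that class, 15 or more CpG were found in 49.5% of genes that rose 2-fold or more, 64.9% of those that fell and 65.9% of all tested genes. In that class genes that fell thus had a share close to that of all tested genes, while genes that rose had a lower one. This did not hold at higher levels. From the second class upward the share was 72.7% of 88, 65.6% of 32 and 55.9% of 34 genes that fell 2-fold or more. Each was below the share of all tested genes in the same class. Whether level accounts for the lower share of genes that fell was not tested. These are shares with no test.

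**Figure D2:**
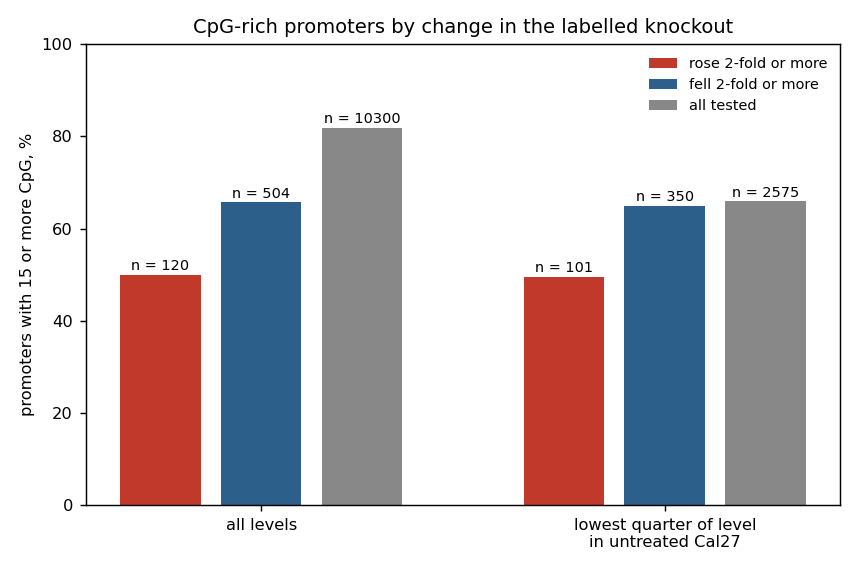
Share of promoters with 15 or more CpG in 300 bases, in percent, for genes that rose 2-fold or more (red), fell 2-fold or more (blue) and all tested genes (grey), at all levels and in the lowest of 4 classes of level in untreated Cal27. The share is 50%, 65.7% and 81.8% at all levels, and 49.5%, 64.9% and 65.9% in the lowest class.

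A search of both strands of these promoters for TGANTCA, the core bound by AP-1, found it in 10% of genes that rose 2-fold or more, 6.94% of those that fell 2-fold or more, 4.73% of all tested genes and 7.76% of all 27305 promoters in the table. CATTCC, the core bound by TEAD factors, was in 12.5%, 11.1%, 10.8% and 14.0% of the same sets. In the lowest class TGANTCA was in 9.9% of genes that rose 2-fold or more and 6.41% of all tested genes. The ANKRD1 promoter holds both sequences. A match is a description of letters and not a site.

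Ligands of the EGF family and receptor tyrosine kinases rose more often than they fell. Of 8 tested ligands of the EGF family, which activate the EGF receptor and its relatives, 6 rose and 1 fell, against 16.4% and 19.5% of all genes, and their median log2 change was 0.61. HBEGF, a heparin-binding ligand, stood at 65.2 and 67.0 CPM in the labelled knockout libraries and 28.5 and 26.0 CPM in the Cal27 libraries. Both labelled knockout libraries were more than double either Cal27 library (log2 1.28 ± 0.07, SE; edgeR, adjusted p = 1.1e-10). EREG stood at 43.5 and 41.8 CPM in the labelled knockout and 21.2 and 22.8 CPM in Cal27, AREG rose by 0.85 and TGFA by 0.38 (log2). The neuregulin NRG1 rose by only 0.17, and was not called without labelled knockout replicate 1 (0.12). In the untreated pair the ligands divided evenly, 4 higher and 4 lower, and AREG, TGFA and NRG1 were among the lower.

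Among 18 receptor tyrosine kinases, 10 rose and 2 fell, with a median of 0.21. ROR1 is given above. AXL, the receptor for GAS6, stood at 177 and 172 CPM in the labelled knockout and 88.5 and 87.4 CPM in Cal27 (log2 0.99 ± 0.04, SE; edgeR, adjusted p = 1.1e-11), with no overlap. ERBB3, a neuregulin receptor, rose by 0.41, and NTRK2, the receptor for brain-derived neurotrophic factor, fell by 0.79 on the log2 scale. The 18 kinases divided evenly in the untreated pair, with 9 higher, 9 lower and a median log2 difference of 0.05. AXL was among the higher, at 260 CPM in the labelled knockout and 93.4 CPM in Cal27. Fibroblast growth factors and their receptors went both ways, with 4 that rose and 4 that fell of 11, or 2 and 3 of 8 outside the shifted stretches of chromosomes described below. FGF2, a heparin-binding mitogen, stood at 76.3 and 75.3 CPM in the labelled knockout and 23.4 and 25.6 CPM in Cal27 (log2 1.63 ± 0.07), and the decoy-like receptor FGFRL1 rose by 0.69. SLIT2, EREG, AREG, FGF2 and FGFRL1 all lie on chromosome 4, whose genes are described below.

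Genes of heparan sulfate chains, the sugars that hold many of these ligands at the cell surface, were divided: 7 of 20 rose and 5 fell. Apart from SULF2, the core proteins SDC3 and GPC1 fell by 1.44 and by 0.72 on the log2 scale, while HSPG2, the perlecan of basement membranes, stood at 436 and 441 CPM in the labelled knockout and 293 and 281 CPM in Cal27.

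ID1 and ID3, which block basic helix-loop-helix factors and are classical targets of BMP signalling, both fell. ID1 stood at 37.2 and 40.2 CPM in the labelled knockout libraries and 98.2 and 98.9 CPM in the Cal27 libraries. Its groups did not overlap (log2 -1.35 ± 0.06, SE; edgeR, adjusted p = 1.9e-11), and ID3 fell by 1.41 on the log2 scale. Counts over the lists were near even. Of 18 BMP and TGF-beta ligands and antagonists 5 rose and 5 fell, and of 27 receptors, SMADs and targets 8 rose and 6 fell. Changes of 2-fold or more were mostly decreases. The first list held 1 that rose and 3 that fell as far, and the second 0 and 4. GDF15, a stress-induced ligand of the family, rose by 0.90, and LTBP1, which anchors latent TGF-beta, fell by 1.59 on the log2 scale.

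WNT ligands, receptors and inhibitors counted 7 that rose and 7 that fell of 26, but 0 rose and 4 fell by 2-fold or more. In the untreated pair 7 of the 26 were higher and 19 lower, with a median of -0.76. WNT10A stood at 14.9 and 14.2 CPM in the labelled knockout and 42.2 and 39.1 CPM in Cal27, and WNT3A fell by 1.66 on the log2 scale, whereas WNT7A and the receptor FZD2 each rose by 0.81. TCF7, a nuclear effector of the pathway, fell by 1.19. In the Notch list, 8 of 23 fell and 5 rose, or 7 and 7 with library size alone. NOTCH3, a receptor, stood at 37.3 and 35.5 CPM in the labelled knockout libraries, against 95.9 and 97.7 CPM in Cal27. That change (log2 -1.41 ± 0.05, SE; edgeR, adjusted p = 2.5e-12) was accompanied by decreases of the Notch targets NRARP (log2 -0.97) and HES1 (-0.69) and of the HES family genes HES4 (-1.14) and HES2 (-1.09). HES1 was level in the untreated pair, at 32.4 CPM in the labelled knockout and 32.3 CPM in Cal27, while NOTCH3, HES4, HES2 and NRARP were lower there too.

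Guidance cues counted 15 that rose and 9 that fell of 36 slits, netrins, semaphorins and receptors, with 6 each way at 2-fold or more. In the untreated pair 15 of the 36 were higher and 21 lower, with a median of -0.23. Besides SLIT2, SEMA7A, a membrane-anchored semaphorin, stood at 17.8 and 19.6 CPM in the labelled knockout and 6.56 and 5.19 CPM in Cal27 (log2 1.67 ± 0.14, SE; edgeR, adjusted p = 5.7e-08), with no overlap, and the secreted SEMA3B rose by 1.52. SEMA3F fell by 1.18 on the log2 scale and UNC5B, a netrin receptor, by 1.38. Of 15 ephrins and Eph receptors 4 rose and 2 fell; EFNB1 stood at 18 and 18 CPM in the labelled knockout and 43.7 and 43.1 CPM in Cal27, and EFNA5 rose by 0.71.

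Of 10 laminins and nidogens, the scaffold of basement membranes, 6 rose and 0 fell, with a median of 0.17. LAMB1 stood at 189 and 184 CPM in the labelled knockout libraries and 117 and 109 CPM in the Cal27 libraries, clear of overlap (log2 0.72 ± 0.04, SE; edgeR, adjusted p = 4.4e-10), and LAMA3, a chain of epithelial laminin, rose by 0.41. In the untreated pair 8 of the 10 were higher. COL4A1, a chain of the basement membrane collagen, stood at 273 and 255 CPM in the labelled knockout and 140 and 132 CPM in Cal27, and its partner COL4A2, named after its values were seen, rose by 0.87. The collagen VI chains went down, COL6A2 by 3.07 and COL6A1 by 1.42 on the log2 scale. Over 25 collagen chains 6 rose and 6 fell.

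Integrins, the receptors for these proteins, counted 6 that rose and 3 that fell of 15. ITGA4 stood at 1.93 and 3.60 CPM in the labelled knockout, against 17.1 and 16.2 CPM in Cal27 (log2 -2.58 ± 0.20, SE; edgeR, adjusted p = 2.5e-08), and ITGB5 rose by 0.96. Cadherins and catenins counted 8 that rose and 10 that fell of 24, or 5 and 8 of 19 outside shifted stretches. CDH13, a cadherin anchored by lipid, fell by 1.30 on the log2 scale, while FAT4, a giant protocadherin of planar polarity on chromosome 4, rose by 1.30 and CDH2, the neural cadherin, by 0.67. Clustered protocadherins, 20 of which were tested, had a median of -0.57 with only 4 called as lower and 2 as higher, and 16 of the 20 were lower in the untreated pair.

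Metalloproteinases and their inhibitors divided evenly by count, with 9 that rose and 9 that fell of 25, but all 9 decreases were of 2-fold or more and the median was -0.82. Beside MMP13 and TIMP3, MMP28 fell by 1.95 on the log2 scale and the collagenase MMP1 fell by 1.64. MMP1 differed far more in the untreated pair, at 0.504 CPM in the labelled knockout and 130 CPM in Cal27. Genes of plasminogen activation and coagulation counted 9 that rose and 6 that fell of 16. PLAT, tissue plasminogen activator, stood at 473 and 475 CPM in the labelled knockout libraries and 229 and 233 CPM in the Cal27 libraries. Its groups were clear of overlap (log2 1.04 ± 0.03, SE; edgeR, adjusted p = 3.1e-14). SERPINB2, an inhibitor of plasminogen activators, rose by 1.26, whereas SERPINE2, an inhibitor of thrombin and plasminogen activators, fell by 1.97 on the log2 scale. TFPI, an inhibitor of tissue factor, had a log2 change of -0.81 whose call rested on single libraries, with -0.56 without labelled knockout replicate 2 (adjusted p = 0.11, edgeR) and -0.67 without Cal27 replicate 2 (adjusted p = 0.072, edgeR). SERPINB2 was lower in the untreated labelled knockout.

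**Figure D3:**
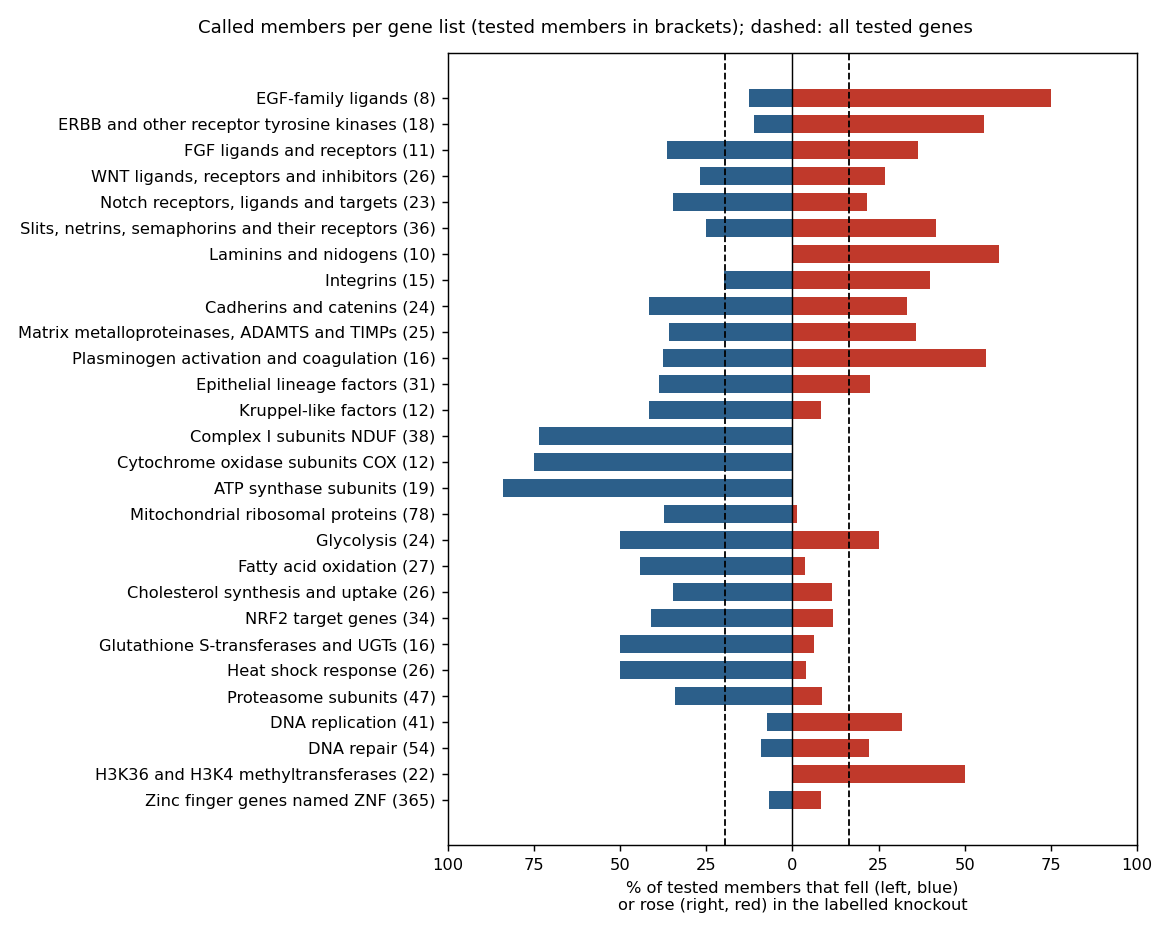
Percent of tested members that fell (left, blue) and rose (right, red) in the labelled knockout for 28 gene lists, with the number of tested members in brackets and dashed lines at the shares over all tested genes, 19.5% and 16.4%. Subunits of the respiratory chain and ATP synthase reach furthest to the left, and EGF-family ligands and laminins furthest to the right.

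Of 31 transcription factors of epithelial lineages 12 fell and 7 rose, with a median of -0.13. SOX2, a factor of squamous progenitors, stood at 1.77 and 1.80 CPM in the labelled knockout libraries, against 14.3 and 13.9 CPM in the Cal27 libraries. The gap was wide and free of overlap (log2 -2.98 ± 0.18, SE; edgeR, adjusted p = 7.2e-10), and SOX2 was 0.137 CPM in the untreated labelled knockout against 22.2 CPM in untreated Cal27. KLF13, a Kruppel-like factor, stood at 5.54 and 5.4 CPM in the labelled knockout and 56.4 and 54.8 CPM in Cal27, and KLF5, an epithelial relative, fell by 0.75 on the log2 scale. FOXE1, a forkhead factor of ectoderm and thyroid, fell by 2.31, ZNF750, a factor of epidermal differentiation, by 2.05, HOXC10 by 1.83, ELF3 by 1.35 and TP73, a relative of p53, by 1.26. GATA2 and RUNX2, developmental factors of blood and bone, rose by 1.0 and 0.94. Among zinc finger genes named ZNF, 30 of 365 rose (8.22%) and 25 fell (6.85%), below the shares over all genes.

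Subunits of the respiratory chain and ATP synthase, which make ATP in mitochondria, fell by small amounts, and 0 of those tested rose. Of 38 complex I subunits 28 fell, with a median log2 change of -0.26, of 12 cytochrome oxidase genes 9 fell (median -0.36), and of 19 ATP synthase subunits 16 fell (median -0.28). ATP5F1B, the catalytic subunit of ATP synthase, stood at 961 and 957 CPM in the labelled knockout libraries and 1224 and 1211 CPM in the Cal27 libraries. Its change was under 2-fold yet clear of the spread between replicates (log2 -0.34 ± 0.03, SE; edgeR, adjusted p = 2.8e-08). Among the larger decreases in these lists were COX5B (log2 -0.64), COX7B (-0.45), NDUFB3 (-0.50) and ATP5PD (-0.44). In the untreated pair 33 of 38, 11 of 12 and 17 of 19 were lower, with medians of -0.20, -0.22 and -0.16. Scaled by library size alone, 23 complex I, 9 cytochrome oxidase and 13 ATP synthase genes fell and 1 complex I gene rose.

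The protein subunits of the mitochondrial ribosome counted 29 of 78 that fell and 1 that rose, with a median of -0.12, and MRPL41 fell by 0.78 on the log2 scale. Fatty acid oxidation counted 12 of 27 that fell and 1 that rose; DECR1, which handles unsaturated fatty acids in mitochondria, stood at 15.9 and 13.2 CPM in the labelled knockout and 27 and 31.2 CPM in Cal27. Glycolysis counted 12 of 24 that fell and 6 that rose. ALDOC, an aldolase, fell by 1.33, and NDRG1, a hypoxia-responsive stress gene, stood at 45.7 and 47.9 CPM in the labelled knockout libraries, against 464 and 452 CPM in Cal27. The Cal27 libraries were far higher (log2 -3.29 ± 0.04, SE; edgeR, adjusted p = 6.9e-19), while the 24 hypoxia targets as a list counted 5 that rose and 8 that fell, or 8 and 5 with library size alone.

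Cholesterol synthesis and uptake counted 9 of 26 that fell (34.6%) and 3 that rose (11.5%), against 19.5% and 16.4% of all genes. HMGCS1, an early enzyme of the pathway, stood at 153 and 147 CPM in the labelled knockout and 244 and 254 CPM in Cal27. SREBF1, the factor that drives lipid synthesis, fell by 0.62 on the log2 scale, and SCD, which desaturates fatty acids, stood at 1145 and 1148 CPM in the labelled knockout and 1734 and 1739 CPM in Cal27. SLC7A5 and SLC3A2, the paired chains of a transporter of large neutral amino acids, fell by 0.61 and by 0.63 on the log2 scale, and SLC7A8, a related light chain, by 2.32. All were also lower in the untreated labelled knockout.

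Lists of detoxification and oxidative defence held more genes that fell than rose. Of 34 NRF2 targets 14 fell and 4 rose, of 16 glutathione S-transferases and UGTs 8 fell and 1 rose, of 21 genes of retinoid and aldehyde metabolism 9 fell and 2 rose, and of 18 cytochrome P450 genes 8 fell and 2 rose. The aldo-keto reductases AKR1C1, AKR1C2 and AKR1C3 fell by 1.01, by 1.58 and by 1.36 on the log2 scale; AKR1C3 was named after its values were seen, and these genes are so alike that reads may be split among them. GPX2, a glutathione peroxidase, fell by 1.44, CYP2S1 by 1.37 and the oestrogen-metabolising CYP1B1 by 1.26. ALDH3B2 stood at 1.16 and 1.37 CPM in the labelled knockout libraries and 8.61 and 8.74 CPM in the Cal27 libraries. ABCA1, an exporter of cholesterol, fell by 1.17. CYP1B1 was higher, not lower, in the untreated labelled knockout.

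Chaperones of the heat shock response counted 13 of 26 that fell and 1 that rose, with a median of -0.11; scaled by library size alone 8 fell and 1 rose. HSPB1, a small heat shock protein, stood at 332 and 324 CPM in the labelled knockout and 609 and 613 CPM in Cal27 (log2 -0.90 ± 0.03, SE; edgeR, adjusted p = 1.9e-12), and HSPB8 fell by 1.46 on the log2 scale. Proteasome subunits counted 16 of 47 that fell and 4 that rose, but 34 of 47 were higher in the untreated labelled knockout. Iron handling counted 9 of 19 that fell (47.4%) and 5 that rose (26.3%), against 19.5% and 16.4% of all genes. Of the ferritin chains, which store iron, FTH1 fell by 0.50 on the log2 scale and FTL rose by 0.44; both have many pseudogenes that can share reads. Lysosomal genes went both ways, 12 up and 8 down of 38, with the protease CTSC at 282 and 285 CPM in the labelled knockout and 490 and 495 CPM in Cal27, and CTSS up by 0.78.

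Of 41 genes of DNA replication 13 rose and 3 fell, none by 2-fold, with GINS4, a subunit of the replicative helicase, highest at 0.55. Outside the shifted stretches of chromosomes described below, 12 of 35 rose and 1 fell. Mitotic genes counted 10 of 40 that rose and 5 that fell, but 6 and 5 of 36 outside shifted stretches, near the shares over all genes; CENPE, a kinetochore motor on chromosome 4, rose by 0.50. DNA repair counted 12 of 54 that rose (22.2%) and 5 that fell (9.26%), against 16.4% and 19.5% of all genes. FANCF, a Fanconi anaemia gene, fell by 1.13 on the log2 scale. Of 28 p53 targets 10 rose (35.7%) and 6 fell (21.4%). BTG2 and CDKN1A, which slow division, fell by 1.35 and by 0.54, while SESN2 rose by 0.56 and the cell death genes PMAIP1 and BBC3 by 0.50 and 0.47. BCL2L1, which protects from cell death, rose by 0.56. In the untreated pair 29 of the 41 replication genes were lower in the labelled knockout.

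Of 22 methyltransferases of H3K36 and H3K4, 11 rose and 0 fell, with a median log2 change of 0.18. NSD3, NSD2 and KMT2D stood at 0.41, 0.38 and 0.28 beside NSD1. Outside the shifted stretches of chromosomes described below, 8 of 19 rose and 0 fell, with a median of 0.12. In the untreated pair 10 of the 22 were higher and 12 lower. Lysine demethylases counted 2 of 23 that rose and 6 that fell, a balance that turned with library size alone (5 that rose, 3 that fell). KDM1A, the demethylase of H3K4, stood at 239 and 237 CPM in the labelled knockout and 325 and 321 CPM in Cal27. Of 18 DNA methylation genes 4 rose (22.2%) and 2 fell (11.1%), with a median log2 change of -0.02. The DNA methyltransferases DNMT3A and DNMT3B were both lower. DNMT3A stood at 4.08 and 3.24 CPM in the labelled knockout libraries and 7.0 and 6.37 CPM in the Cal27 libraries. Neither enzyme's groups overlapped (DNMT3A log2 -0.87 ± 0.20, adjusted p = 0.0021; DNMT3B -0.65 ± 0.17, adjusted p = 0.0066; SE, edgeR), and DNMT3B was not called with DESeq2. ZBTB38, a reader of methylated DNA, rose by 0.72. Of 17 imprinted genes 6 rose (35.3%) and 2 fell (11.8%), against 16.4% and 19.5% of all genes. Besides SNRPN and PPP1R9A, GRB10 fell by 1.38 on the log2 scale and UBE3A, a neighbour of SNRPN, rose by 0.65. Of 28 nucleoporins, NUP210 included, 9 rose (32.1%) and 3 fell (10.7%), and SEH1L rose by 0.32.

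Among other families, MYH10, a nonmuscle myosin, rose by 0.85. Ankyrin repeat genes named ANKRD counted 14 of 38 that rose and 3 that fell. ABC transporters counted 9 of 30 that fell and 2 that rose, but 5 and 1 of 25 outside shifted stretches, near the share of decreases over all genes. The gap junction genes GJA1 and GJB6 fell by 1.08 and by 1.7 on the log2 scale. The mucins MUC1 and MUC4 fell by 1.20 and by 1.41, opposite to MUC2, and IGFBP6, a binder of IGF-II, fell by 1.14. Among surface signal regulators, CD24, a ligand of Siglec-10, stood at 2.2 and 2.09 CPM in the labelled knockout and 11.2 and 13.8 CPM in Cal27, while ICAM1, a leukocyte adhesion molecule, stood at 289 and 293 CPM in the labelled knockout and 150 and 156 CPM in Cal27.

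Genes that are not protein-coding were few among those tested. Of 47 lncRNAs 4 rose and 7 fell, of 131 pseudogenes 8 rose and 17 fell, and of 245 transcribed pseudogenes 15 rose and 14 fell. Among those of at least 5 CPM in the higher group, the called changes of largest size included ZNF204P (log2 -1.74), FKBP9P1 (1.13) and LRRC37A4P (1.01), pseudogenes whose reads may come from their parents. UQCRFS1P1, another pseudogene, had 39 and 10 counts in the labelled knockout and 69 and 99 in Cal27. Its log2 change of -1.75 was not called with DESeq2 (adjusted p = 0.12) or with a robust estimate of the spread (adjusted p = 0.10, edgeR), and was -3.09 without labelled knockout replicate 1 and -1.04 without replicate 2.

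All 10 epithelial markers were tested, 3 rose and 4 fell, and their summed level was 4566 and 4697 CPM in the labelled knockout libraries and 7838 and 7818 CPM in Cal27. KRT5 and KRT14, keratins of basal cells, carried the difference: KRT5 stood at 1882 and 1956 CPM in the labelled knockout and 4028 and 3960 CPM in Cal27, and KRT14 at 185 and 194 CPM in the labelled knockout and 1322 and 1307 CPM in Cal27. The other 8 summed to 2499 and 2547 CPM in the labelled knockout and 2489 and 2551 CPM in Cal27. Of 12 immune markers CD3E, CD3D, MS4A1 and NKG7 had no count in any of the 4 libraries and PTPRC was below 1 CPM in each, while the summed level was 177 and 181 CPM in the labelled knockout against 84.2 and 84.2 CPM in Cal27, carried by LAPTM5 (log2 1.62) and CD68 (0.94), both lysosomal proteins. Fibroblast markers summed to 10.2 and 7.49 CPM in the labelled knockout and 20.6 and 19.1 CPM in Cal27, with COL1A1 at -1.26 and 7 of 10 below 1 CPM in each library. Endothelial markers summed to 22.9 and 20.7 CPM in the labelled knockout and 18.1 and 17.6 CPM in Cal27. Most of this was CDH5, at 22.3 and 20.0 CPM in the labelled knockout and 15.6 and 14.4 CPM in Cal27. Of the 3 endothelial markers tested 1 rose and 2 fell, both by 2-fold or more on few counts, with a median log2 change of -1.68. The part of these markers in the results was not tested. Melanocyte markers summed to under 4 CPM in each library.

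Surfactant genes of lung, a set chosen after values were seen, were higher in the Cal27 DMSO libraries. SFTPA1, SFTPA2 and SFTPC had 0 counts in both labelled knockout libraries, against 22 and 18, 20 and 42, and 26 and 36 counts in the Cal27 libraries, and 0 in both untreated libraries. SFTPB stood at 6 and 10 counts in the labelled knockout and 32 and 27 in Cal27. Their part in other results was not tested. Of the 682 genes that fell 2-fold or more, 20 had at most 3 counts in untreated Cal27, and of the 181 that rose 2-fold or more, 8 had at most 3 in the untreated labelled knockout.

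Shares of called genes differed between chromosomes. On chromosome 4, 177 of 465 tested genes rose (38.1%) and 42 fell (9.03%), with a median log2 change of 0.21. Chromosome 21 had 42.4% that rose, and chromosomes 20, 22 and 5 had 29.1%, 26.7% and 26.0% that fell, against 16.4% and 19.5% over all genes. The genome was cut into 311 stretches of about 40 tested genes, by RefSeq position on GRCh38.p14. A median of 0.15 or more was found in 11 stretches, of which 8 lay on chromosome 4, and a median of -0.15 or less in 13. On chromosome 4 from 56.4 to 190.0 Mb, 43.0% of 305 genes rose and 2.95% fell, with a median of 0.24. At 33.3 to 43.1 Mb of chromosome 8 the median was 0.30 with DMSO and -0.22 untreated, and PLAT, NSD3 and GINS4 lie on that chromosome. Over the first 40.8 Mb of chromosome 5 it was -0.29 with DMSO and -0.06 untreated. Gene by gene these shifts were small, and 1924 of the 2169 genes that rose and 2301 of the 2580 that fell lay outside shifted stretches. Without shifted stretches the complex I, cytochrome oxidase and ATP synthase subunits that fell numbered 26 of 34, 8 of 11 and 16 of 19, and 3 of 4 EGF-family ligands rose.

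The untreated pair carried shifts of its own that the DMSO libraries lacked. Over the last part of chromosome 2, from 154.7 to 242.2 Mb, 302 of 328 tested genes (92.1%) were lower in the untreated labelled knockout than in untreated Cal27, with a median log2 difference of -0.92. The median change of the same genes with DMSO was -0.06. Within the labelled knockout the untreated library was below the DMSO libraries there by a median of 0.91 (log2 difference -0.91), while within Cal27 the difference was -0.05. At the start of chromosome 8, from 0.2 to 32.8 Mb, 74.2% of 120 genes were lower in the untreated labelled knockout, with a median of -0.36, against 0.03 with DMSO; NEFL and NRG1 lie on that chromosome. There the untreated libraries were below the DMSO libraries in both, with a median of -0.86 in the labelled knockout and -0.47 in Cal27. The rest of chromosome 2 had a median of 0.01 in the untreated pair. The untreated values of ITGA4, WNT10A, SERPINE2, GPC1 and NDUFB3, all on chromosome 2, are to be read with this. On chromosome 4 after 56.4 Mb, where the DMSO median was 0.24, the untreated median was 0.10.

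**Figure D4:**
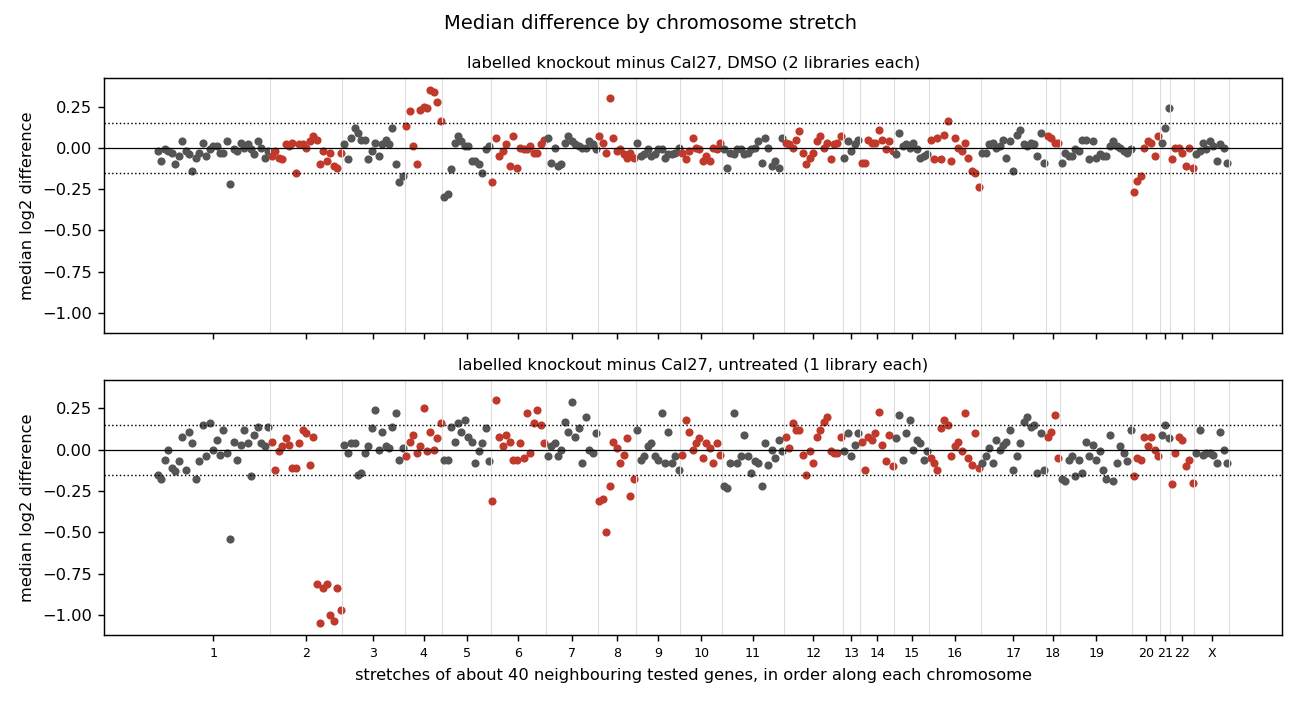
Median log2 difference between the labelled knockout and Cal27 in each stretch of about 40 tested genes, in order along each chromosome, for the DMSO libraries (upper panel, 2 libraries each) and the untreated pair (lower panel, 1 library each). Dotted lines mark 0.15 either way. Of the stretches of chromosome 4, 8 stand above the line in the upper panel, and the end of chromosome 2 near -0.92 in the lower panel alone.

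Genes that fell 2-fold or more often lay next to each other. Of 664 such genes with a position, 169 (25.5%) had a neighbouring tested gene that fell as far, against 9.0% of the other genes; for genes that rose 2-fold or more the shares were 11.4% and 2.44%. Runs of 3 or more included the 6 kallikreins from KLK5 to KLK10 on chromosome 19, secreted proteases with a median of -3.44, where KLK8 stood at 1.85 and 2.30 CPM in the labelled knockout and 26.5 and 27.6 CPM in Cal27, and KLK5 and KLK10 had log2 changes of -3.60 and -2.51. Others were AKR1C1 to AKR1C3 on chromosome 10 and MMP7, MMP10 and MMP1 on chromosome 11. Keratinocyte and interferon genes count in these shares and runs. The longest run held 9 genes on chromosome 1, SPRR and S100 genes among them. Further runs were 6 keratins on chromosome 17, and 4 keratins and a group with OAS genes on chromosome 12. The single run that rose held ANTXR2, PRDM8 and FGF5 on chromosome 4 (median 1.69). Neighbouring genes of one family share sequence, which limits how far their reads can be told apart.

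The untreated libraries, which had no part in the test, moved the same way for most large changes. Of the 682 genes that fell 2-fold or more with DMSO, 585 (85.8%) were lower in the untreated labelled knockout, and of the 181 that rose 2-fold or more, 157 (86.7%) were higher there, against 63.4% with the same sign over all 13241 genes. Without the last part of chromosome 2 the shares were 85.9% and 86.4%. All 15 of the largest decreases and 14 of the 15 largest increases kept their sign, the exception being LTBP2. SIRPA did so by a margin of -0.01, at 18.6 CPM in the untreated labelled knockout and 18.7 CPM in untreated Cal27. Across the 13241 genes the log2 difference of the untreated pair had a Pearson r of 0.513 and a Spearman rank correlation of 0.421 with the change under DMSO, given as a description because genes are not independent replicates. The untreated and DMSO libraries of Cal27 themselves differed 8-fold or more in 95 genes.

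**Figure D5:**
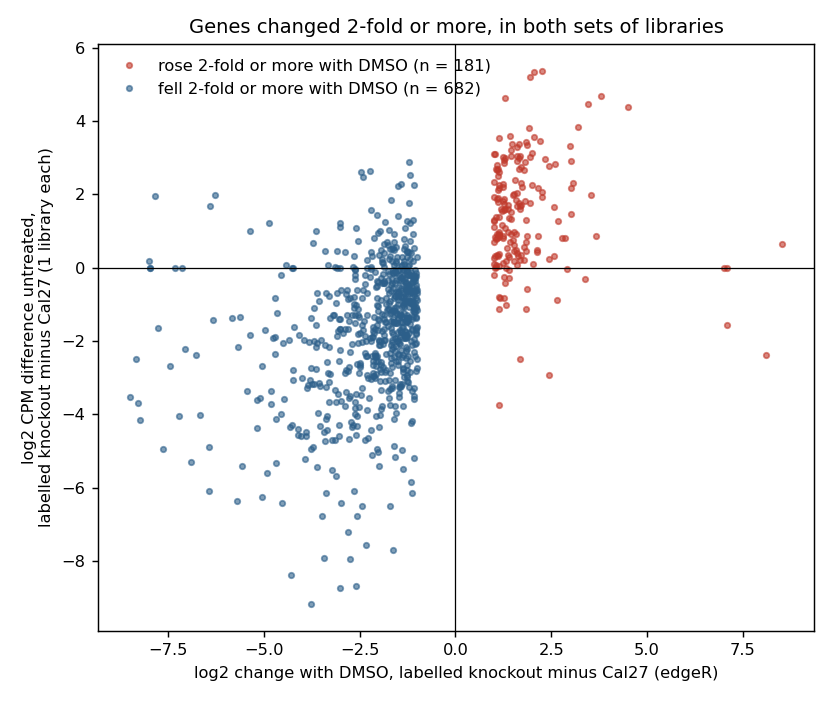
The log2 difference between untreated labelled knockout and untreated Cal27 (1 library each) against the edgeR log2 change with DMSO, for 181 genes that rose (red) and 682 that fell (blue) 2-fold or more with DMSO. Most points lie in the upper right and lower left: 157 of 181 and 585 of 682 have the same sign.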

How the data were processed

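RNA-seq of 10 libraries was given as a table of counts per gene. The counts were deposited by the authors without normalization. Per the submitters' processing notes, the tools were HISAT2 2.1.0, featureCounts 1.6.1, Picard 2.23.1 and CASAVA 1.7, on genome build hg38; the labels' protocols give total RNA depleted of ribosomal RNA. Neither the gene annotation nor the strand setting is stated there. The 7 CUT&Tag samples were not analysed here.

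Of 34496 rows, 12036 were 0 in all 10 libraries. The default filterByExpr (minimum count 10) left 13241 genes, which were fitted over 6 libraries with edgeR 4.0.16 in R 4.3.3 (TMM, quasi-likelihood F test), and the test was tried on simulated data. The standard error (SE) is the absolute log2 change over the square root of F. Counting intervals are exact 95% and cover counting error only. Symbols were matched to RefSeq for 26967 rows and by an older symbol for 479; 7050 were unmatched. Replicates differed beyond sampling noise (chi-square over degrees of freedom 1.75 in the labelled knockout and 1.84 in Cal27). Reads of overlapping, antisense and near-identical genes may be shared.

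The gene lists (61), symbol families (52) and the question itself were chosen with earlier results of these data known. Genes named were the 15 largest rises and 15 largest falls (protein-coding, 5 CPM or more) outside interferon and keratinocyte symbols, up to 5 calls per list, up to 8 non-coding genes of the same level and genes near 0 in one group. COL4A2, AKR1C3, the members of runs of neighbours, single cell type markers and the surfactant genes lie outside that rule and were chosen after values were seen. A few items that the rule names are not reported here. Alternatives covered normalization (DESeq2 1.42.0 included), filters, libraries, threshold and spread.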

Additional observations from a re-analysis of the deposited data

Results flagged for a closer look

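Some genes changed one way between the DMSO libraries and differed the other way in the untreated pair, which has 1 library a side; the difference between the settings was not tested. LTBP2 had a log2 change of 1.83 with DMSO and a difference of -1.13 untreated. SERPINB2 stood at 1.26 with DMSO and -0.84 untreated, and TGFA at 0.38 and -0.20. NRG1, GINS4 and NSD3, all on chromosome 8, stood at 0.17, 0.55 and 0.41 with DMSO and at -1.26, -0.45 and -0.20 untreated. In the opposite sense, CYP1B1 and COL1A1 each stood at -1.26 with DMSO and at 0.28 and 0.46 untreated, and FTH1 stood at -0.50 and 0.04.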

How the results depend on the processing

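Testing against a log2 fold of 0.5 (glmTreat) left 248 genes that rose in the labelled knockout and 618 that fell, 257 calls within the lists and families and 22 that rose on chromosome 4; a stricter question gives fewer calls by construction. Adding the untreated pair to the fit left 1318 that rose, 1595 that fell, 769 within lists and 103 on chromosome 4, and NRG1 turned to -0.29; the cause was not tested. Of 163 genes named as called, 23 others lost their call in that fit: SIRPA, LTBP2, AREG, TGFA, MMP1, CYP1B1, COL1A1, GJA1, TCF7, HES1, LTBP1, SERPINB2, NSD2, NSD3, KMT2D, ERBB3, CDKN1A, FTH1, GINS4, SFTPB, UQCRFS1P1, TGIF2-RAB5IF and AC055811.2. Over all 15 alternatives 117 of the 163 kept call and direction and 46 lost the call in at least 1. Leaving out 1 library at a time gave 1560 to 1665 that rose and 1929 to 2028 that fell. Genes changed 2-fold or more numbered 135 to 219 that rose and 512 to 778 that fell over all alternatives. DESeq2 called 1512 that rose and 1736 that fell. Without genes in shifted stretches, an alternative chosen after seeing the data, 1924 rose and 2301 fell, and without genes near 0 in the untreated library 2160 and 2558. Replicate numbers did not pair the samples (correlation of deviations 0.014 between the groups compared); with a replicate block 2054 rose and 2458 fell, of which 2040 and 2443 were shared with the fit without it. Changes of genes under a few CPM rest on few reads.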
